A study of Mus musculus with 2 samples.

Results

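Cartilage genes known to depend on Sox9 or to be enriched in cartilage were read in Sox9-expressing and Sox9-deleted prostate epithelial cells. The genes are Mia1, Vwa1, Col2a1, Col9a1, Col11a2, Comp, Hapln1, Matn1, Matn3 and Chad, and every non-control probe that carries one of these gene names was taken. They make up 10 of the 27827 gene names and 16 of the 41174 probes on the array. Mia1 and Vwa1 are in the study's own list of genes that are higher with Sox9 on these arrays, so their ratios chose them. The other 8 genes were picked from what is known of cartilage, with results of these arrays already seen. The ratios of all 10 genes are therefore given as a description, with no test.

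The cells were grown as prostaspheres, which are spheres that single prostate epithelial cells form in Matrigel. Each of 2 two-colour arrays on 1 slide held a Sox9-expressing RNA labeled with Cy5 and a Sox9-deleted RNA labeled with Cy3. In the genotype comparison (replicate 1), TAM-treated wild-type cells were set against TAM-treated ER-Sox9flox/flox cells. In the treatment comparison (replicate 2), ER-Sox9flox/flox cells given vehicle were set against ER-Sox9flox/flox cells given TAM. TAM is tamoxifen, given at 5 µM for 6 days after 6 days in Matrigel, and dihydrotestosterone was in the medium of every culture. The labels name the background of every culture as C57/Bl6J and its source as epithelium of the urogenital sinus at 16 dpc, whereas the methods describe prostaspheres from adult prostate. The Cre is a tamoxifen-activated form driven from the Rosa26 locus, which is active in nearly all cell types, so deletion was not limited to a cell type. Whether the wild-type cells carried Cre is not stated for that RNA. On the second array both RNAs carry the genotype label Sox9 null, and only TAM or vehicle separates them. In the source names the Cy5 RNA is SOX9 and the Cy3 RNA is Ctrl. These names were not used; if SOX9 there meant the deletion, every ratio would have the opposite sign.

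Sox9 is a transcription factor of the SRY-related HMG box family. In chondrocytes it works with Sox5 and Sox6 to turn on the collagen genes of cartilage and the proteins that bind their fibrils, and without it cartilage does not form. Col2a1, Col9a1 and Col11a2 encode chains of the cartilage fibrils. Hapln1 encodes the link protein that fastens aggrecan to hyaluronan. Comp, Matn1, Matn3 and Chad encode adaptors between fibrils, proteoglycans and cells. Mia1 encodes a small secreted protein, also called cartilage-derived retinoic acid-sensitive protein, that is made by chondrocytes and by melanoma cells. Vwa1, also called WARP, encodes a protein with a von Willebrand factor A domain that lies in the matrix next to chondrocytes and in basement membranes, where it binds perlecan and collagen VI.

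The array reads Mia1 with 3 probes and Col2a1 with 3. The sequences that carry the main contrast are shown here, read 5′ to 3′ from the array files, with capitals for bases that 2 probes of the same gene share. The Mia1 probes lie on the minus strand of chromosome 7 (build mm9) at chr7:27965751-27965810 for probe 1, chr7:27964841-27965234 for probe 2 and chr7:27965205-27965264 for probe 3. Each probe has 60 bases. Probe 2 spans 394 bases of the genome and so matches across a splice junction, and it shares 30 bases with probe 3, so these probes are not independent. The first Col2a1 probes lie on the minus strand at chr15:97806485-97806544 and chr15:97806505-97806564 and share 40 bases.
Mia1 probe 1: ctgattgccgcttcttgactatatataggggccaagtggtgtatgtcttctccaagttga
Mia1 probe 2: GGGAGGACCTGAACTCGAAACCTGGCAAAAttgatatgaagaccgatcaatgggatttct
Mia1 probe 3: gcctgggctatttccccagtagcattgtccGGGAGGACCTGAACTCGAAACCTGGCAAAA
Col2a1 probe 1: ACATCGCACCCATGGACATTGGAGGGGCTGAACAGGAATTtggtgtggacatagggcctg
Col2a1 probe 2: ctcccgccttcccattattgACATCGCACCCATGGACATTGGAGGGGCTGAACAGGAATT

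Brightness was read first, because a ratio means little where neither RNA gives signal. The scanner software marks a spot as well above background in each dye, and a probe was counted as above background where most of its spots were marked. Over all probes this held for 53.9% and 56.1% in Cy5 and for 55.2% and 56.2% in Cy3 in the genotype and treatment comparisons. Cy5 spots read brighter than Cy3 spots even without target: the 153 negative control spots had medians of 63.2 and 58.7 scanner units in Cy5 and of 23.7 and 23.5 in Cy3. Raw brightness is therefore compared only within a dye.

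The deleted gene itself was read by 3 probes. On chromosome 11, at 112647008 to 112647067, the brightest read 2258 in wild-type and 1534 in vehicle-treated cells in Cy5, and 121 and 129 in the deleted cells in Cy3. Its log2 ratios of Sox9-expressing over Sox9-deleted RNA, after the normalization, were 2.69 and 2.37 in the genotype and treatment comparisons, and the probe from 112644310 to 112645162 had 1.18 and 1.27. The probe from 112648809 to 112648868 went the other way on both arrays, with a mean of -1.11 ± 0.16 (SD, n = 2 arrays). Its Cy5 signal in wild-type cells (62.5) was not above background, so the size of that ratio is uncertain. Each Sox9 probe thus ran the same way on both arrays, but not the same way as one another. The part of Sox9 that is deleted is not given for these probes, so no single probe checks the labels, and every direction given rests on the labels as read above.

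Mia1 was well above background both with and without Sox9. Probe 1 read 807 in wild-type cells and 660 in vehicle-treated cells (Cy5), and 53.6 and 58.6 in the TAM-treated ER-Sox9flox/flox cells of the genotype and treatment comparisons (Cy3). Probe 2 read 640 and 508 in Cy5 and 45.8 and 48.1 in Cy3. Probe 3 read 873 and 764 in Cy5 and 78.1 and 74.7 in Cy3. All 3 probes were marked so in all 4 RNAs, and Mia1 RNA was thus still detected in the deleted cells. The highest negative control spots read 70.4 in Cy5 and 28.9 in Cy3.

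Vwa1 was read by 1 probe, on the minus strand at chr4:155143700-155143759. It gave 810 in wild-type cells and 1071 in vehicle-treated cells in Cy5, and 91.7 and 90.8 in the deleted cells in Cy3. It too was well above background in all 4 RNAs. The vehicle-treated cells were thus the brighter of the Sox9-expressing cultures for Vwa1 and the dimmer for every Mia1 probe.

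The collagen genes were dim in both classes of RNA. Col2a1 probe 2 read 116 and 100.3 in Cy5 and 47.5 and 46.9 in Cy3, and it was above background in all 4 RNAs. Col2a1 probe 1, which shares 40 bases with it and is printed on 10 spots, was above background in Cy5 on 7 of 10 spots of the genotype comparison and on 1 of 9 usable spots of the treatment comparison, and on 0 spots in Cy3 on either array. The third Col2a1 probe, at chr15:97831516-97831575, was above background in no RNA. Col11a2 probe 1, on chromosome 17, read 104 and 95.6 in Cy5 and 47.8 in Cy3 on both arrays and was above background in all 4 RNAs. Its second probe and the Col9a1 probe were each above background in 1 RNA, a Cy5 RNA for Col11a2 and a Cy3 RNA for Col9a1, both in the treatment comparison.

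The link protein and adaptor genes were not detected. Comp, Hapln1, Matn1, Matn3 and Chad had no probe above background in any RNA. Their Cy5 brightness lay between 58.5 and 70.3, within or at the upper edge of the negative control spots. In Cy3, Comp and Chad read 30.7 to 31.4, a little over the highest negative control spot. Of the 16 probes, 6 were above background in all 4 RNAs, 3 in 1 RNA and 7 in none. By gene, 4 of the 10 had such a probe in all 4 RNAs and 5 had none in any. For these genes a difference was not detectable at this signal, and the array does not show that they were absent.

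**Figure D1:**
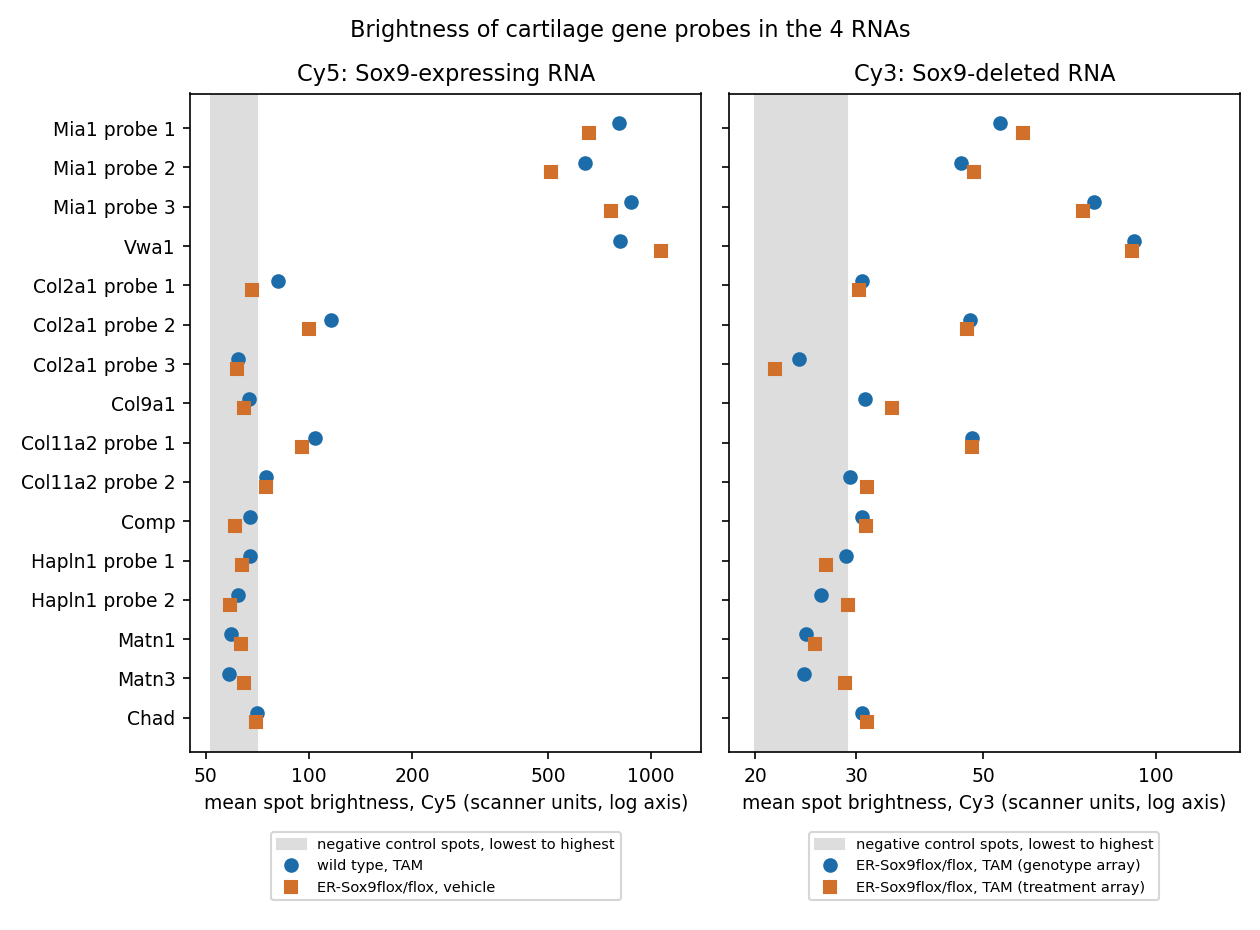
Mean brightness of the 16 probes in scanner units on a log axis, for the Sox9-expressing RNAs (Cy5, left) and the Sox9-deleted RNAs (Cy3, right), with the grey band from the lowest to the highest negative control spot of both arrays. The Mia1 and Vwa1 probes lie at 508 to 1071 in Cy5, and the probes of the other 8 genes reach at most 116.

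After background correction and normalization, log2 ratios of Sox9-expressing over Sox9-deleted RNA were computed for each array. Mia1 probe 1 had 1.97 in the genotype and 2.10 in the treatment comparison, with a mean of 2.03 ± 0.09 (SD, n = 2 arrays). Probe 2 had 1.74 and 1.94, with a mean of 1.84 ± 0.14. Probe 3, the brightest, had 1.82 and 2.04, with a mean of 1.93 ± 0.16. The means correspond to 4.10-, 3.58- and 3.81-fold higher Mia1 signal with Sox9, and probe 1, which shares no bases with the others, gave the highest. Vwa1 had 1.57 and 2.28, with a mean of 1.93 ± 0.50 or 3.80-fold. The arrays differed more for Vwa1 than for any Mia1 probe. On within-dye log2 levels, Vwa1 was 0.51 higher in the vehicle-treated than in the wild-type cells, and the deleted cells of the treatment comparison differed from those of the genotype comparison by -0.20. For Mia1 the same differences were -0.08, -0.08 and -0.04 in Cy5 and -0.21, -0.28 and -0.27 in Cy3 for probes 1, 2 and 3. In Cy3 the raw brightness of probes 1 and 2 went the other way, being higher in the treatment comparison, so no direction is read from these Cy3 differences between the arrays.

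The other 8 genes had no ratio near this size. Their 12 probes ran from -0.26 to 0.15 on single arrays, and their means from -0.15 to 0.07. Col2a1 probe 2 had -0.00 and -0.02, a mean of -0.01 ± 0.02. Col2a1 probe 1 had 0.06 and -0.03, with an SD between its spots of 0.05 on each array. Col11a2 probe 1 had -0.02 and -0.12. All of these lay far under 2-fold in either direction. In the treatment comparison the most negative were Comp with -0.26, Hapln1 probe 2 with -0.24 and Col9a1 with -0.20, against -0.04, -0.02 and -0.03 in the genotype comparison. None of these was above background in all 4 RNAs. Matn1 had -0.03 and 0.09, Matn3 -0.04 and 0.09, and Chad -0.05 and -0.06.

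A change was counted where the log2 ratio was at least 1 in the same direction on both arrays. This count was 2 of the 10 genes higher with Sox9, Mia1 and Vwa1, with 4 of the 16 probes, and 0 lower. Over the 22731 probes bright enough to test, 66 were higher by that rule, which is 0.29%, and 29 were lower, which is 0.128%, or 0.418% in either direction. Nothing is read from this count, since Mia1 and Vwa1 were chosen by these ratios. Over the 10 genes, each read from its brightest probe, the median of the mean log2 ratios was -0.00, and over the 15131 tested genes it was 0.00. Only 4 of the 10 genes, Mia1, Vwa1, Col2a1 and Col11a2, were bright enough to be tested. No array had the dyes swapped, so an effect of the dye and an effect of Sox9 cannot be told apart, and nor can Sox9 and tamoxifen in the treatment comparison. In such bulk RNA, fewer cells that make a transcript and less transcript per cell cannot be told apart either.

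**Figure D2:**
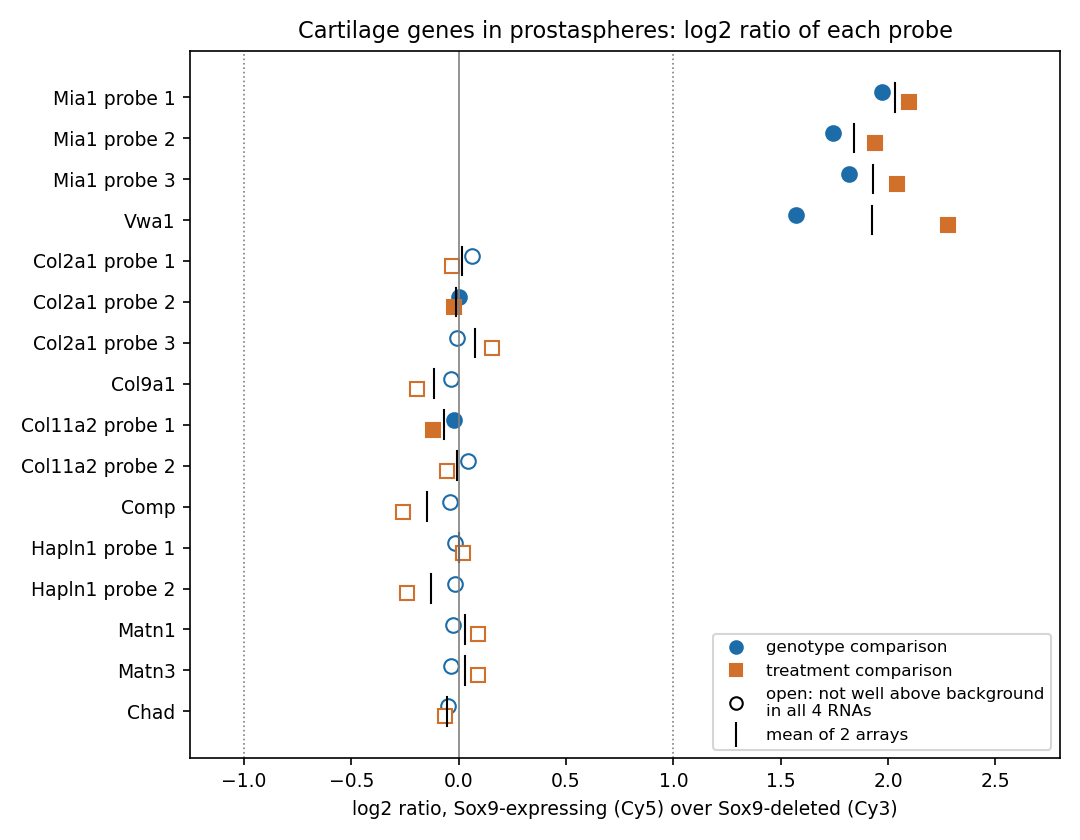
Log2 ratio of each of the 16 probes in the genotype (circles) and treatment comparison (squares), with a bar at the mean; open symbols are probes that were not above background in all 4 RNAs, and dotted lines mark 2-fold. The 4 probes of Mia1 and Vwa1 lie at 1.57 or more on both arrays, and the other 12 between -0.26 and 0.15.

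Other cartilage matrix genes were read from a list of 23, of which 22 were on the array and 15 were bright enough to test. By the rule of at least 2-fold on both arrays 0 of them changed, and limma called 0 at an adjusted p under 0.05, 0 at an unadjusted p under 0.05, and the methods' t-test called 0 unadjusted, against 8.47% of all tested probes. Over all tested probes limma called 2 at an adjusted p under 0.05 (0.0088%), both lower with Sox9, and 17.5% had an unadjusted p under 0.05. That direction depended on the processing, since 491 of 522 calls with median centring and 50 of 68 with the authors' values were higher with Sox9. The median of the mean log2 ratios over the 15 genes was 0.05, close to the 0.00 of all tested genes. As for the 10 genes, many were faint: 6 of the 22 were above background in no RNA.

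Acan, the aggrecan core protein and a direct Sox9 target in chondrocytes, had -0.11 and -0.19 and was above background in Cy3 only. Its Cy5 brightness was 67.3 and 69.5, in the range of the negative controls. Hapln3, a link protein of other tissues, had -0.07 and -0.17, and Col27a1, a fibrillar collagen of growth plate cartilage, had -0.06 and -0.10. These were the lowest means of the list, each well under 2-fold.

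The highest means of the list came from 1 array each. Col11a1, which encodes the partner chain of Col11a2 in collagen XI, had -0.69 in the genotype and 2.23 in the treatment comparison. Its second detected probe had -0.33 and 2.09, the same pattern. Its brightness was 555 in wild-type and 4769 in vehicle-treated cells (Cy5), against 493 and 498 in the deleted cells (Cy3), so the vehicle-treated cells were the high ones. Matn2, a matrilin found outside cartilage as well, had 0.02 and 1.02. Prelp, a proline- and arginine-rich protein that anchors basement membranes, had 0.02 and 0.97. Both were higher with Sox9 in the treatment comparison alone, where 1.35% of all tested probes passed 2-fold higher, against 0.471% in the genotype comparison.

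Markers of mesenchyme also differed between the arrays. Of 10 mesenchyme and fibroblast markers, all tested, 8 were lower in the genotype and higher in the treatment comparison, against 18.4% of all tested genes. By at least 0.5 on each array, 0.524% of all tested probes did so, and 0.0132% went the opposite way. Their medians were -0.74 and 0.66, and their ranges -1.62 to 0.01 and -0.14 to 1.13. Col3a1 had -1.62 and 1.13, Col1a1 -1.26 and 1.03 and Col1a2 -0.84 and 1.07. The part of mesenchymal cells in the ratios of Col11a1, Matn2 and Prelp was not tested. Mia1 and Vwa1 had the same sign on both arrays, at 1.57 or more.

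Markers of the epithelium were read for the same reason. All 7 (Epcam, Cdh1, Krt8, Krt18, Krt5, Krt14 and Trp63) were above background in all 4 RNAs, so epithelial transcripts were seen in each. This does not settle whether the cells came from the urogenital sinus or from adult prostate. The basal keratins Krt5 (2.13 and 1.91) and Krt14 (2.07 and 1.86) were at least 2-fold higher with Sox9 on both arrays. So was the brightest probe of Trp63 (1.65 and 1.55), the transcription factor of basal cells. Another Trp63 probe, above background in all 4 RNAs, had 0.52 and 0.53. It was dimmer in Cy5, at 166 and 134 in wild-type and vehicle-treated cells, against 1721 and 1517 at the brightest probe. The remaining Trp63 probe was above background in no RNA. The luminal keratins Krt18 (-0.28 and -1.01) and Krt8 (0.01 and -0.74, and -0.42 and -1.05 at its other probe) were not 2-fold on both arrays. Nor were the adhesion proteins Epcam (0.46 and 0.37) and Cdh1 (-0.31 and -0.32). Mia1 and Vwa1 thus ran alongside Krt5, Krt14 and the brightest Trp63 probe, and the part of basal cells in their ratios was not tested.

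**Figure D3:**
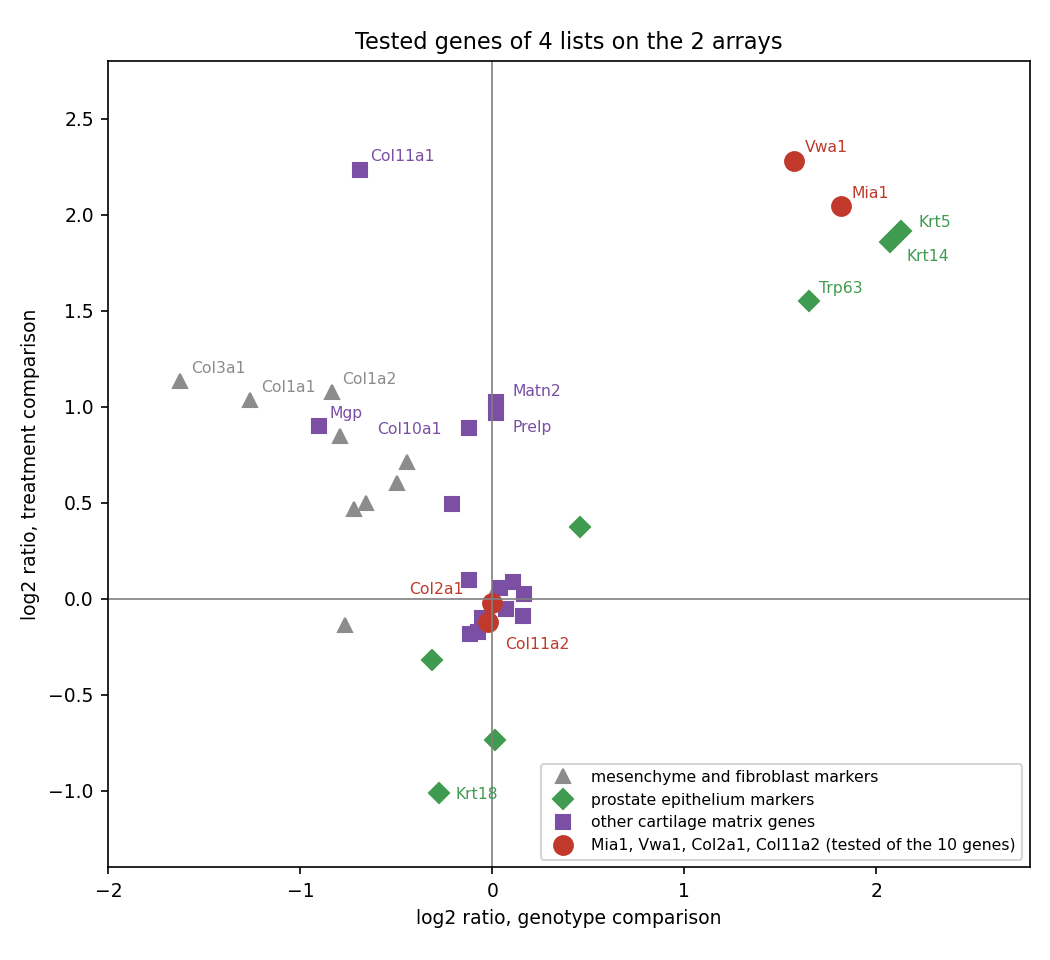
Log2 ratio in the genotype (horizontal) against the treatment comparison (vertical) for the tested genes of 4 lists, each gene read from its brightest probe. Mia1 and Vwa1 lie at the upper right near Krt5, Krt14 and Trp63, Col2a1 and Col11a2 near 0, and Col11a1 and most mesenchyme markers at the upper left.

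Mia1 is also made by melanoma cells, so markers of the melanocyte lineage were read. Of 9 markers, 4 (Tyr, Tyrp1, Dct and Foxd3) were above background in no RNA, 5 were tested, and 0 were at least 2-fold on both arrays. Sox10, the lineage factor, had -0.05 and -0.11 and was above background in Cy3 only. Mlana (-0.23 and 0.62) had the highest mean of those tested, and Mitf (-0.26 and 0.19), Pmel (-0.08 and -0.00) and Sox10 the lowest. Mlana, Mitf and Pmel were above background in all 4 RNAs. Their Cy5 brightness in wild-type and vehicle-treated cells was 126 and 291 for Mlana, 138 and 205 for Mitf, and 91.8 and 94.3 for Pmel. The part of cells of the melanocyte lineage in the Mia1 ratios was not tested.

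The relatives of Mia1 did not share its ratio. Mia2, a larger protein of endoplasmic reticulum exit sites, had -0.16 and 0.02. Mia3, which loads large collagens into transport vesicles, had -0.08 and 0.13 at its brightest probe, and its other probes had 0.05 and 0.31, and -0.01 and 0.04. Otor, the closest relative of Mia1 and expressed in the cartilage of the ear, was above background in no RNA. Mia2 and Mia3 had limma adjusted p values of 0.697 and 0.891.

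The binding partners of Vwa1, perlecan and collagen VI, and other basement membrane genes did not share its ratio either. Hspg2, the perlecan core protein, had 0.22 and 0.11. The collagen VI chains Col6a1 (-0.78 and 0.10) and Col6a2 (-0.72 and -0.03) had negative ratios in the genotype comparison and ratios near 0 in the treatment comparison. The third chain, Col6a3, had -0.17 and -0.13 at its brightest probe, nearly the same on both arrays. The other Col6a3 probe had -0.11 and 0.05, and the other Col6a2 probe had -0.24 and 0.14. Nid1 (-0.95 and 0.21) and Nid2 (-0.25 and 0.84), the nidogens that link basement membrane networks, had opposite signs on the arrays. So did Col4a1 (-0.44 and 0.30), Col4a2 (-0.74 and 0.23) and Lamc1 (-0.14 and 0.22). All 9 were above background in all 4 RNAs, with 0 at least 2-fold on both arrays, 0 called by limma at an adjusted p under 0.05 and 0 at an unadjusted p under 0.05. Their medians were -0.44 in the genotype and 0.21 in the treatment comparison.

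The factors and enzymes of the chondrocyte program were read from a list of 16, all on the array, of which 10 were tested and 6 were above background in no RNA. By the 2-fold rule 0 changed and limma called 0 at an adjusted p under 0.05. At an unadjusted p under 0.05 limma called 3 higher (Sox6, Trps1 and Runx2) and 1 lower (Chst11), against 17.5% of all tested probes, and the methods' t-test called 2, against 8.47% of all tested probes. Sox5 was among the genes not detected.

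Sox6, the partner of Sox9 on cartilage enhancers, had the highest mean of that list, with 0.65 and 0.52 at its brightest probe (limma adjusted p = 0.124). Its brightness there was 197 in wild-type and 129 in vehicle-treated cells (Cy5), against 33.5 and 33.2 in the deleted cells (Cy3). In the genotype comparison that Cy3 signal was not above background, so the ratio of 0.65 and the rank are uncertain. For 2 further Sox6 probes, well above background in Cy5 and not in Cy3 on both arrays, the mean log2 ratios were 0.24 and 0.30. With Cy3 not above background these are lower bounds, at least 1.18-fold and 1.23-fold higher with Sox9, and their sizes are uncertain. Their limma adjusted p values were 0.265 and 0.244. With the scanner's processed signals Sox6 had 3.16 and 2.04 in the genotype and treatment comparisons, past 2-fold higher on both arrays. With offset 10, offset 0, no background subtraction, median centring and the authors' values Sox6 was not past 2-fold on both arrays. Trpv4, a calcium channel of chondrocytes, had 0.83 and 0.07. Trps1, a transcriptional repressor active in the growth plate, had 0.45 and 0.40 (limma adjusted p = 0.153), and Runx2, the factor of hypertrophic chondrocytes and bone, had 0.33 and 0.41 (limma adjusted p = 0.176). The lowest were Pth1r (-0.43 and -0.05), Chst11 (-0.27 and -0.17) and Wwp2 (-0.07 and -0.21).

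The genes whose pair of ratios lay closest to those of Mia1 and Vwa1 were sought among the 15131 tested genes. Over 2 arrays many genes can lie close, and the likeness is only that of 2 numbers. Nearest to Mia1 were Krt10 (1.78 and 2.14, at a distance of 0.105), 1110032A04Rik (1.94 and 2.13), Duoxa1 (1.89 and 2.23), Palmd (1.74 and 1.80) and Car12 (2.04 and 1.83). Nearest to Vwa1 were Csta (1.57 and 2.47, at a distance of 0.187), Krt10, Duoxa1, BC100530 (1.70 and 2.60) and Mia1 itself at 0.342. Krt10, a keratin of suprabasal cells, and Duoxa1, a maturation factor of a hydrogen peroxide-making oxidase, were on both lists. No other gene of the cartilage lists was.

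The neighbours of Mia1 and Vwa1 in RefSeq gene order were read to see whether the ratio was shared along the chromosome. Beside Mia1, Rab4b had -0.03 and -0.03, Egln2 0.15 and 0.14 and Snrpa 0.19 and 0.14. Beside Vwa1, Atad3a had 0.05 and -0.20. None of these tested neighbours was near 2-fold on either array.

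RefSeq promoter windows (build GRCm38.p6, from before to just after the start of a gene) were given for 7 of the 10 genes, in 8 windows: Mia1 (there named Mia), Col9a1, Col11a2, Hapln1, Matn1, Matn3 and Chad. They were searched on both strands for letters that Sox proteins are known to bind. The letters AACAAT were in 0 of the 8 windows and in 10.7% of all 32851 windows. For ACAATG, which overlaps them when the letters run on, the counts were 0 of the 8 and 12.6% of all. For ACAAAG they were 0 of the 8 and 18.7% of all. An inverted pair, made of ACAANG, then 3, 4 or 5 bases of any kind, then the reverse complement CNTTGT, was in 0 of the 8 and in 0.125% of all. The TATA letters TATAAA were in 2 of the 8, those of Chad and Col11a2, and in 13.6% of all. The upstream part of the Mia1 window (chr7:27181150-27181399, minus strand) is shown, as that of the changed gene with a window given.
Mia1 upstream: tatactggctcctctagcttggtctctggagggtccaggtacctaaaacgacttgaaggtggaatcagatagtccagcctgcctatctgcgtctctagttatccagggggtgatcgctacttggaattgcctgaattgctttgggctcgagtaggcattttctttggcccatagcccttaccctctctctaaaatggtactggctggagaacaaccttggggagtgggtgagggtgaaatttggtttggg
A match or its lack describes only these letters in these windows.

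The ratios of Mia1 and Vwa1 were read again under other ways of processing the same spots. Single-array log2 ratios of the 3 Mia1 probes ran from 1.42 to 3.71 and those of Vwa1 from 1.57 to 2.82 over 8 ways. The means ran from 3.58- to 10.7-fold for Mia1 and from 3.75- to 6.10-fold for Vwa1. The offset of 50 added to each signal, which steadies dim probes and makes their ratios smaller, gave ratios at the low end. The scanner's processed signals also put Col9a1 (-1.80 and -2.30) and Comp (-1.11 and -1.93) past 2-fold lower with Sox9. Neither was above background in both classes of RNA on both arrays, and under the values reported above they had means of -0.11 and -0.15.

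**Figure D4:**
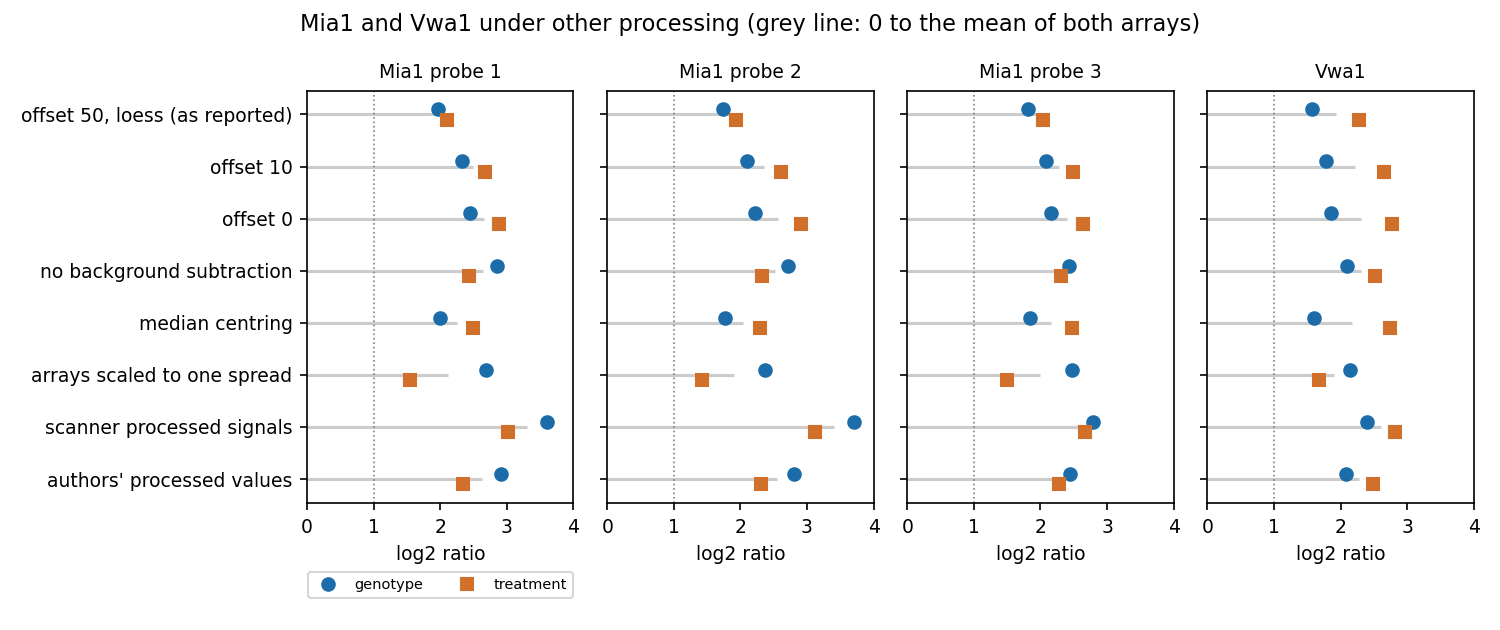
Log2 ratios of the 3 Mia1 probes and of Vwa1 in the genotype (circles) and treatment comparison (squares) under 8 ways of processing; grey lines run from 0 to the mean and dotted lines mark 2-fold. All values lie right of the 2-fold line, with the lowest at 1.42 and the highest at 3.71.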

How the data were processed

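Both arrays are Agilent whole mouse arrays. The authors' scanner software deposited, per the file headers, the mean intensity of each spot and of its local background, processed intensities, the log10 ratio of Cy5 over Cy3, and marks for spots well above background or outlying. The authors also deposited processed values, whose slopes of 3.12 and 3.14 on the log10 ratios show them to be log2 ratios. Their further steps are not given in the sources used here, and the submitters' processing notes name limma. Mean intensities were corrected with normexp (offset 50) in limma 3.58.1 (R 4.3.3), and loess was run within each array without control spots (1639 of 45018). Each probe is the mean of its spots other than outliers (126 and 130). Probes well above background in Cy5 or in Cy3 on both arrays (22731 of 41174) were tested against 0 by 2-sided lmFit and eBayes with Benjamini-Hochberg adjusted p-values. The 2 arrays are the replicates. Nothing says that their cultures came from separate animals, so p-values measure only the spread between these arrays. Saturation marked 0 spots, and precision is limited by having 2 arrays.

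The normalization, the limma fit and the 2-fold rule were first tested on simulated data. Members and gene lists were chosen with earlier results of these data known. Named are all members with every probe, Sox9, the Mia1 family, and the Vwa1 partners with other basement membrane genes. Also named are the genes past 2-fold and the 3 highest and 3 lowest means from each other list, and the 5 nearest genes to Mia1 and to Vwa1. Mgp, Runx2, Col1a1 and undetected genes were named after their values were seen. The brightest probe stood for its gene. The values of 1 lineage marker are not reported here. Other settings of background, normalization, signal, filter, test and arrays were tried. Files hold gene names and mm9 positions, and no gene models of that build were used here. Python 3.11.15, pandas 2.3.3, numpy 2.4.6 and matplotlib 3.10.9 were used.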

Additional observations from a re-analysis of the deposited data

Results flagged for a closer look

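Col11a1 and Mgp differed between the arrays by sign: each was lower with Sox9 in the genotype comparison and higher in the treatment comparison by at least 0.5 on the log2 scale. For Col11a1, a chain of collagen XI, the log2 ratio was 2.93 higher in the treatment than in the genotype comparison (2.23 against -0.69). For Mgp, the matrix Gla protein that inhibits calcification, it was 1.80 higher (0.90 against -0.90). With 1 array for each comparison the difference was not tested. Over all tested probes, 0.524% were at least 0.5 lower in the genotype and 0.5 higher in the treatment comparison. Their brightness was 555 and 4769 in Cy5 for Col11a1, and 27491 and 69654 for Mgp, in wild-type and vehicle-treated cells, and 493 and 498, and 23755 and 15993, in Cy3. Of the 10 mesenchyme markers, 4 differed in this way by the same limit, and their part was not tested.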

How the results depend on the processing

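No paired analysis was possible because each array is itself 1 within-array contrast and no second group shares a replicate number. Mia1 had mean log2 ratios of 2.28 (offset 10), 2.40 (offset 0), 2.37 (no background subtraction), 2.16 (median centring), 2.73 (scanner signals) and 2.36 (the authors' values), and Vwa1 2.61 with scanner signals. Scanner signals gave 4 genes of the 10 past 2-fold (Col9a1 and Comp lower), 1 other cartilage gene (Acan, lower) and 1 chondrogenic gene (Sox6, higher). limma called 2 probes, but 0 with offset 10, offset 0, no background subtraction, arrays scaled to one spread, scanner signals and the methods' t-test, 522 with median centring (491 higher) and 68 with the authors' values (50 higher). Past 2-fold were 95 probes (66 higher and 29 lower), against 148 without background subtraction, 122 with median centring (112 and 10), 64 scaled (48 and 16), 657 with scanner signals (227 and 430) and 147 with the authors' values. Median centring left the median of tested probes at 0.38 in the treatment comparison, and scanner signals left it at -0.13 on each array.

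Leaving out an array gave 298 to 382 probes past 2-fold and 0 to 2 other cartilage genes (Col11a1 and Matn2 in the treatment comparison alone). It left no residual degrees of freedom, so no test was run. No direction of Mia1 or Vwa1 turned under any setting. For the other 8 genes, 88 values under other settings ran from -2.05 to 0.24. Each was read from the brightest probe of a gene, or from all its probes where these were averaged. The third Col2a1 probe, above background in no RNA, had -0.01 and 1.02 with offset 0, a mean of 0.50. Some of the 88 values could not move by more than the spread between arrays. The filters leave a ratio unchanged, and leaving out an array changes a mean by less than that spread. Averaging probes changes nothing for a gene read by a single probe. Of the 88 values, 31 moved by more than that spread, and this share does not measure how stable the ratios are. The cause of these shifts was not tested.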
